A study of Mus musculus with 13 samples.

Results

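The genes described here are 31 members of glycolysis, lactate handling and glycogen turnover, chosen by symbol in the raw count files of 13 mouse hearts. All 31 were among the 53278 symbols of the files. Of these members, 30 had enough reads to enter a test that covered 15690 genes. Aldoc, an aldolase of brain, had 0 to 5 reads per heart and was not tested. The hearts came from male wild-type (WT) C57Bl6 mice aged 17 weeks whose surgery took place 5 weeks earlier, at 12 weeks of age. In the IR edit group (n = 4) ischaemia and reperfusion (IR, a temporary stop of the blood supply to heart muscle) was combined with a functional editing system against CaMKIIdelta, a calcium-dependent kinase of heart muscle encoded by Camk2d. In the IR virus group (n = 3) IR was combined with a control virus. The IR group (n = 3) had the same injury and the Sham group (n = 3) a sham operation, and neither was injected. The promoter, dose and virus type of the editing system, the time of day of harvest and any batch are not given in the labels. RNA was taken from whole hearts, so that fewer cells of a type and less RNA per cell cannot be told apart.

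Glycolysis turns glucose into pyruvate, which enters the mitochondria or becomes lactate, and glycogen is the cell's own glucose store. Heart muscle runs mainly on fatty acids, and takes up glucose through the insulin-responsive carrier GLUT4 (Slc2a4) and the basal carrier GLUT1 (Slc2a1). The committed step is phosphofructokinase, built from muscle (Pfkm), liver (Pfkl) and platelet (Pfkp) subunits and driven by fructose 2,6-bisphosphate, whose level the bifunctional PFKFB enzymes set. Most steps have a muscle form and a more widely used form, so that the choice of gene at a step marks the tissue or its state.

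The promoters of Pfkp, Pfkfb1, Pfkfb3 and Ldhb are printed because these 4 members passed the test in at least 1 comparison. They are the 250 bases before a RefSeq start in GRCm38.p6, the mm10 build, printed 5′ to 3′ on the strand of the gene. The Pfkp promoter lies at chr13:6648772-6649021 on the minus strand. That of Pfkfb1, the start nearest to the annotated start of the gene among 4, lies at chrX:150587993-150588242 on the plus strand. Pfkfb3 has 2 starts on the minus strand, whose promoters lie at chr2:11553930-11554179 and chr2:11502091-11502340, and the Ldhb promoter lies at chr6:142507958-142508207 on the minus strand. In GENCODE M21 the genes themselves span chr13:6579768-6648777 (Pfkp), chrX:150588229-150643878 (Pfkfb1), chr2:11471433-11554077 (Pfkfb3) and chr6:142490249-142507957 (Ldhb). Capitals mark CACGTG (the E-box), ACGTG or GCGTG (the core of the hypoxia response element) and TTATGNAA (the D-box of clock output factors), or their reverse complements.
Pfkp: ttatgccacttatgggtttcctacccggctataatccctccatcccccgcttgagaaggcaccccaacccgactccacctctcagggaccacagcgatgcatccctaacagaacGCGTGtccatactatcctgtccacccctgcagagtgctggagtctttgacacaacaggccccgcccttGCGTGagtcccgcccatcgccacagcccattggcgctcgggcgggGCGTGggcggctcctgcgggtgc
Pfkfb1: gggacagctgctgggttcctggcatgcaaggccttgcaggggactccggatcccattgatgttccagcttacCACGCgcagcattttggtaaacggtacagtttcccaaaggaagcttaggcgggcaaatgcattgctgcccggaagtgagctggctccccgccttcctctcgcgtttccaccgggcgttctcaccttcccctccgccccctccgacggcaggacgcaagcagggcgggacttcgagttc
Pfkfb3 upstream start: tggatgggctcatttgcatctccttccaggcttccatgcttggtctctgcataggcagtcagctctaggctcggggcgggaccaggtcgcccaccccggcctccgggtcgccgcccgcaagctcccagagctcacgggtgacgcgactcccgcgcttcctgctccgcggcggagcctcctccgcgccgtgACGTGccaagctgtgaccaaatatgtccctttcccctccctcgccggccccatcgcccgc
Pfkfb3 downstream start: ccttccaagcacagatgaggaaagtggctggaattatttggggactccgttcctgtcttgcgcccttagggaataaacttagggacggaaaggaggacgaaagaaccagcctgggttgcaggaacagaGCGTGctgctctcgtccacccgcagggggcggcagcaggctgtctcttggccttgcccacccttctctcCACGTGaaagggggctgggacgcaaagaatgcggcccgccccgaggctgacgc
Ldhb: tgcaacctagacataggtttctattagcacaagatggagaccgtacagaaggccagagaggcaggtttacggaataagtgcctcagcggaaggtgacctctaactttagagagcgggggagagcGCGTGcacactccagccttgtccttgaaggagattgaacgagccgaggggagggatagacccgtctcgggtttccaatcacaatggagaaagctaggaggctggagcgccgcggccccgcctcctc
The Pfkp promoter held 3 GCGTG matches. Across its 4 starts Pfkfb1 held 1 GCGTG match and none of the other motifs. The upstream Pfkfb3 promoter held ACGTG alone, whereas the downstream one held CACGTG and GCGTG. Every CACGTG contains ACGTG on both strands, so these matches are not separate. Of the members, 30 matched an entry, all but Slc2a4, with 47 promoters in total. CACGTG was in 5 of the 47 (10.6%) and in 6.02% of the 32851 promoters in the RefSeq table. ACGTG was in 40.4% of members' promoters and 16.6% of all, GCGTG in 53.2% and 28.2%, and TTATGNAA in 2.13% and 3.07%.

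The libraries held between 20634820 and 27265276 counted reads, of which 29.7 to 38.5% were mitochondrial. The 8 defining cardiomyocyte markers summed to 36956 to 46899 CPM (counts scaled to library size) in IR edit, 43438 to 46615 in IR virus, 40390 to 43024 in IR and 41699 to 50090 in Sham. Camk2d averaged 223 ± 17.9 CPM in IR edit (SD, n = 4), 217 ± 18.4 in IR virus, 241 ± 5.42 in IR and 251 ± 45.1 in Sham (n = 3 each), and it passed the test in none of the 7 comparisons. Counts per gene do not show whether its bases were edited. On the first principal component of all tested genes, IR edit replicates 2 and 4 stood apart at 34.0 and 45.1. Replicates 1 and 3 were at 10.2 and -2.80, and hearts of the other groups spanned -26.5 to 3.83. Clock genes, 12 in number, summed to 391 to 462 CPM in IR edit, 613 to 694 in IR virus, 607 to 624 in IR and 611 to 743 in Sham. Immediate early genes, 8 in number, summed to 105 to 199 CPM in IR edit, 57.4 to 65.3 in IR virus, 58.2 to 61.4 in IR and 52.3 to 58.0 in Sham.

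Set out by level per exon length (CPM per kilobase of merged exons, mean of 13 hearts), muscle forms led, together with the heart subunit Ldhb and the brain form Pygb. Eno3, the muscle enolase, had 429, Ldhb, the heart subunit of lactate dehydrogenase, 422, Aldoa, the muscle aldolase, 314, Pgam2, the muscle phosphoglycerate mutase, 250, Pfkm 243, Pygm, the muscle glycogen phosphorylase, 238, and Pygb, the brain glycogen phosphorylase, 172 CPM per kb. These 7 overlapped their neighbours over hearts, and the lowest heart for Pygb (128) lay above the highest for Tpi1 (118), the next in order. Triose phosphate isomerase (Tpi1, 109), the muscle and liver lactate dehydrogenase subunit (Ldha, 101), pyruvate kinase (Pkm, 91.7), the monocarboxylate carrier MCT1 (Slc16a1, 78.8), Slc2a4 (70.7), hexokinase 2 (Hk2, 59.3) and phosphoglycerate kinase (Pgk1, 51.9) formed the next run of overlapping CPM per kb values. Glucose phosphate isomerase (Gpi1, 36.7) stood alone, followed by glycogen synthase (Gys1, 18.8) and hexokinase 1 (Hk1, 18.7).

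The lower part of the order held the genes that differed most between hearts. Levels per kb ran from 12.97 for the glycogen branching enzyme Gbe1 through Pfkl (9.40), Pfkfb2 (7.68), Eno1 (6.95), Pfkp (4.75), Pfkfb1 (3.52), Slc2a1 (2.75), Pgam1 (1.77), Pfkfb3 (1.64), Gapdh (1.33) and Pygl (0.842) to Pfkfb4 (0.596 CPM per kb), each overlapping its neighbour over hearts. The carrier MCT4 (Slc16a3, 0.263) and Aldoc (0.0256) stood below. The highest heart exceeded the lowest by 7.40-fold for Pfkfb1, 3.08-fold for Pfkp, 2.42-fold for Slc16a3 and 2.28-fold for Pfkfb3, against 1.15-fold for Pgk1, 1.17-fold for Tpi1 and 1.22-fold for Eno3. Merged exon length overstates the transcript where long variants are annotated, as for Pfkp (13401 bases), so the order is approximate. Sequence shared with other genes also differs between members. Of the 50-base stretches in protein-coding transcripts, other genes hold 0% for Eno3 and Pgam2, 58.4% for Gapdh and 68.0% for Pgk1. How reads from such stretches were counted is not given, so low levels such as that of Gapdh are uncertain. Together the 31 genes took 1.17 to 1.28% of non-mitochondrial reads in IR edit, 1.16 to 1.30% in IR virus, 1.14 to 1.18% in IR and 1.09 to 1.26% in Sham, ranges that overlap.

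**Figure D1:**
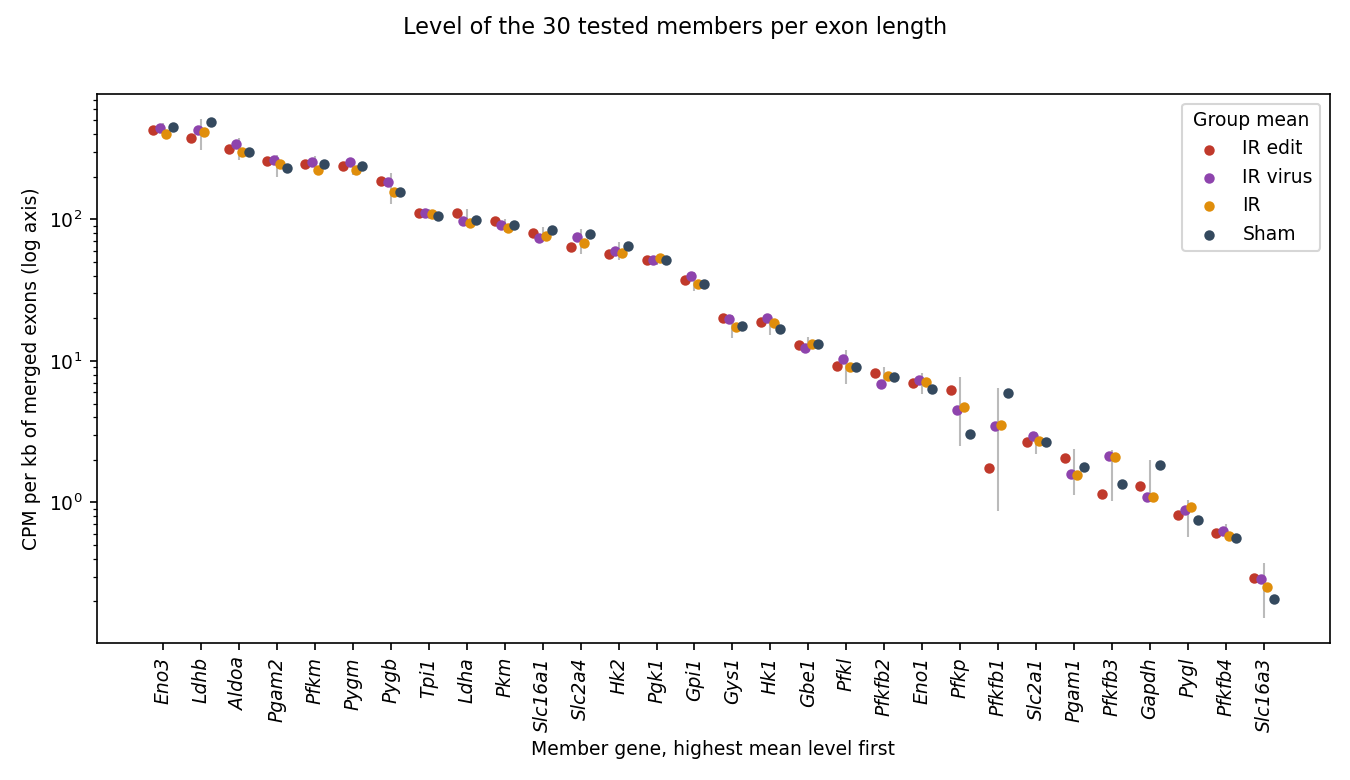
Level of the 30 tested members on a log axis of CPM per kilobase of merged exons, ordered by the mean over 13 hearts. Points are group means (IR edit, IR virus, IR, Sham) and grey lines span the lowest to the highest heart. The spread is widest for Pfkfb1 and Pfkp, in the lower part of the order, and narrow for Tpi1 and Pgk1.

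Few members were called in the main fit, at shares near those of all tested genes. Of the 30 tested members 3 passed edgeR's quasi-likelihood test at an adjusted p under 0.05 in IR edit against Sham, where 8.01% of all tested genes did. Pfkp was the 1 member that rose (4.61% of all genes rose), and Pfkfb1 and Ldhb fell (3.4% of all genes fell). Against IR virus 1 member passed in IR edit, Pfkfb3, which fell, where 2.02% of all genes passed and 1.06% fell. Against IR the same gene fell in IR edit and was again the 1 member to pass, where 1.42% of all genes passed and 0.637% fell. These comparisons share the IR edit hearts. The count was 0 by edgeR in IR virus against Sham and in IR against Sham (0.0127% of all genes in each), in IR and IR virus together against Sham (0.0191%) and in IR virus against IR (0%). At an unadjusted p under 0.05 from edgeR those 4 comparisons had 7, 7, 8 and 1 members. Of all 15690 tested genes 2411, 1307, 2189 and 603 were under it. DESeq2's Wald test called 3, 2, 3 and 0 members. Among all genes it called 202 of 13556, 57 of 15686, 241 of 15686 and 0 of 15686. All 4 comparisons with Sham use the same 3 hearts.

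The median log2 fold change of the members was 0.06 in IR edit against Sham, where that of all genes was -0.00, and the median absolute log2 fold change was 0.13 for members and 0.16 for all genes. Between IR edit and IR virus those medians were -0.05 for members with an absolute median of 0.10, which was 0.14 for all genes. In IR virus against Sham the absolute median was 0.18 for members and 0.15 for all genes. Groups did not overlap for 3 members in IR edit against Sham, where they did not for 16.4% of all genes. Without overlap were 10 members in IR virus against Sham (21.3% of all genes), 8 in IR against Sham (14.4%) and 6 in both together against Sham (8.44%). Among the remaining comparisons, 4 members were without overlap in IR edit against IR virus (13.9% of all genes), 5 in IR edit against IR (12.8%) and 3 in IR virus against IR (12%). The p-values measure the spread between these samples, which the labels do not tie to separate litters or surgery days.

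**Figure D2:**
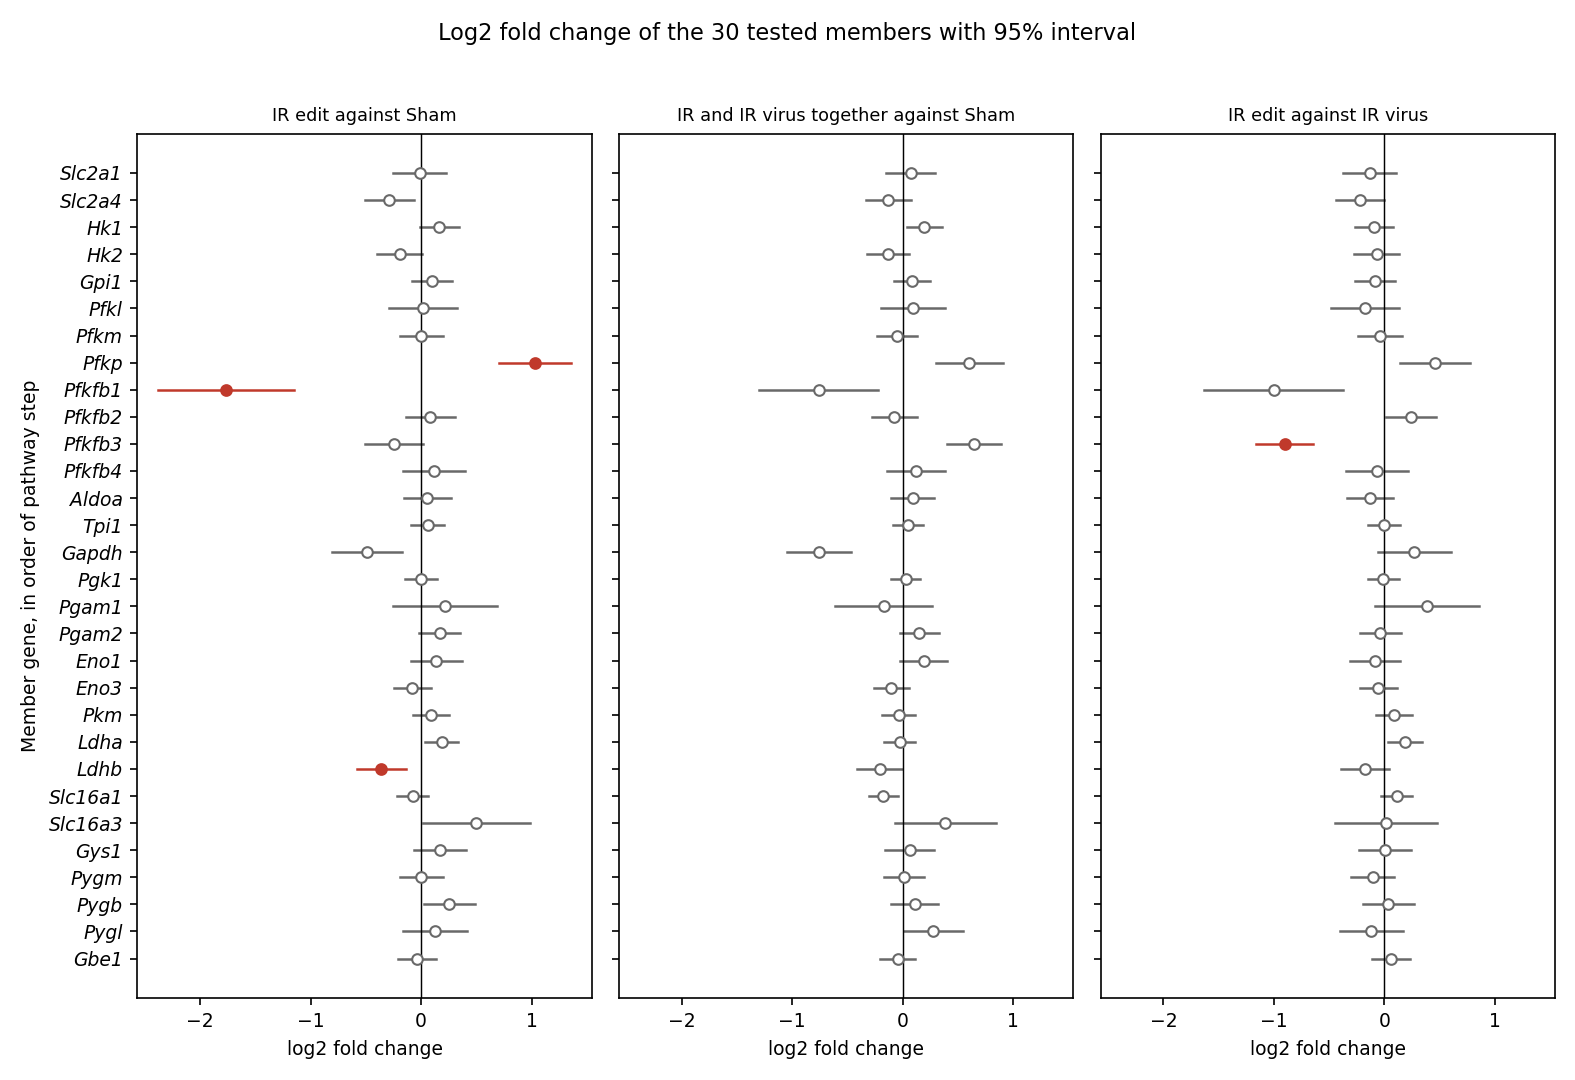
Log2 fold change (x axis) of the 30 tested members, in pathway order, for IR edit against Sham, IR and IR virus together against Sham, and IR edit against IR virus. Points are edgeR estimates with lines for 95% intervals, and filled red points passed at an adjusted p under 0.05. Most members lie near 0, with Pfkp at 1.03 and Pfkfb1 at -1.77 in IR edit against Sham.

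Neither glucose transporter passed in any comparison. Slc2a4, the main carrier of cardiomyocytes, averaged 223 ± 24.6 CPM in IR edit (SD, n = 4), 260 ± 29.5 in IR virus, 237 ± 12.7 in IR and 272 ± 32.0 in Sham (n = 3 each). For IR edit against Sham this gave -0.29 ± 0.10 on the log2 scale (SE, edgeR adjusted p = 0.0995). Slc2a1 averaged 9.34 ± 1.40 CPM in IR edit, 10.3 ± 0.194 in IR virus, 9.61 ± 0.770 in IR and 9.44 ± 0.578 in Sham. Per exon length Slc2a1 made up 4.04% of the sum of both carriers in IR edit and 3.81% in IR virus, 3.87% in IR and 3.35% in Sham.

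The 3 genes of glucose phosphorylation and isomerisation also stayed short of the threshold. Hk1, the hexokinase of most tissues, averaged 162 ± 8.16 CPM in IR edit, 173 ± 5.34 in IR virus, 158 ± 13.04 in IR and 144 ± 15.4 in Sham. Every IR virus heart lay above every Sham heart for Hk1, at a log2 fold change of 0.26 and an adjusted p of 0.202 from edgeR. Hk2, the insulin-responsive hexokinase of muscle, averaged 337 ± 25.1, 353 ± 22.5, 348 ± 39.5 and 385 ± 43.4 CPM in IR edit, IR virus, IR and Sham. Within a heart the log2 ratio of Hk1 to Hk2 averaged -1.06 in IR edit, -1.03 in IR virus, -1.14 in IR and -1.42 in Sham, and the highest Sham heart (-1.35) lay below the lowest of the other hearts (-1.28). Gpi1, which converts glucose 6-phosphate to fructose 6-phosphate, averaged 241 ± 16.8 CPM in IR edit, 256 ± 23.7 in IR virus, 223 ± 4.52 in IR and 225 ± 20.6 in Sham.

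Among the phosphofructokinase subunits, Pfkp rose in IR edit. Pfkp had 71.1, 103, 63.3 and 95.6 CPM in IR edit hearts 1 to 4, 63.2, 59.9 and 59.2 in IR virus, 62.0, 61.4 and 65.6 in IR, and 33.6, 49.0 and 39.9 in Sham. All 10 hearts with IR lay above all 3 Sham hearts, and IR edit replicates 2 and 4 lay above every other heart. The level was 2.04-fold higher in IR edit than in Sham, a log2 fold change of 1.03 ± 0.15 (SE, adjusted p = 0.0017 from edgeR, higher in 4 of 4 hearts). Against the same Sham hearts IR virus had a log2 fold change of 0.57 ± 0.16 (adjusted p = 0.156) and IR one of 0.63 ± 0.16 (adjusted p = 0.289). Neither passed in the main fit. In a fit of the 9 libraries outside IR edit both passed (adjusted p = 0.0231 and 0.0184 from edgeR). Against IR virus the log2 fold change of IR edit was 0.46 ± 0.15 (adjusted p = 0.15). It passed there without IR edit replicate 3 (0.57, adjusted p = 0.0366 from edgeR), and was 0.15 (adjusted p = 0.748) without replicates 2 and 4. Against Sham Pfkp passed whichever library of the groups compared was left out, and also without IR edit replicates 2 and 4 together (0.72 ± 0.12, adjusted p = 0.00941).

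The other subunits of this enzyme did not pass. Pfkm, the muscle subunit, had 842, 779, 931 and 744 CPM in IR edit, 857, 888 and 796 in IR virus, 774, 740 and 724 in IR, and 907, 841 and 721 in Sham. For Pfkm IR edit and Sham overlapped, and their log2 fold change was 0.00 ± 0.09, its sign changing between settings. Every IR virus heart lay above every IR heart for Pfkm, at an unadjusted p of 0.0823 and an adjusted p of 0.962 from edgeR. Pfkl had 67.3, 60.8, 55.0 and 61.9 CPM in IR edit, 73.0, 79.7 and 54.6 in IR virus, 55.9, 55.7 and 69.7 in IR, and 67.0, 68.5 and 46.1 in Sham. All groups overlapped for Pfkl. Per exon length Pfkm made up 94.1% of the step in IR edit and 95.3% in Sham. Pfkp accounted for 2.42% of it in IR edit, 1.69% in IR virus, 1.98% in IR and 1.19% in Sham. Its merged exon length (13401 bases) overstates the transcript, so these shares of Pfkp are likely too low.

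The PFKFB family, which makes and breaks down fructose 2,6-bisphosphate, held 2 of the 4 members called in any comparison. Pfkfb1, the liver and skeletal muscle form, fell in IR edit against Sham. It had 7.86, 4.44, 12.5 and 3.48 CPM in IR edit, 11.4, 17.7 and 12.8 in IR virus, 12.8, 13.7 and 15.7 in IR, and 25.8, 21.1 and 24.4 in Sham. Every heart with IR lay below every Sham heart, and the lowest were IR edit replicates 4 and 2. Its level in IR edit was 0.294 times that in Sham, a log2 fold change of -1.77 ± 0.29 (SE, adjusted p = 0.00327 from edgeR, lower in 4 of 4 hearts). IR virus and IR had log2 fold changes of -0.77 ± 0.30 (adjusted p = 0.257) and -0.76 ± 0.30 (adjusted p = 0.534) against Sham. Neither passed in the main fit, and both passed in a fit of the 9 libraries outside IR edit (adjusted p = 0.0179 and 0.026 from edgeR). Between IR edit and IR virus the log2 fold change was -1.0 ± 0.30 (adjusted p = 0.105 from edgeR), which passed without IR edit replicate 3 (-1.40, adjusted p = 0.00632). Without IR edit replicates 2 and 4 the change against Sham was -1.24 ± 0.20 (adjusted p = 0.00707) and that against IR virus -0.47 ± 0.20 (adjusted p = 0.427).

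Pfkfb3, the inducible form with high kinase activity, had another pattern over the groups. Its levels were 9.16, 7.80, 8.43 and 9.10 CPM in IR edit, 15.8, 16.9 and 15.7 in IR virus, 15.1, 14.9 and 17.8 in IR, and 12.7, 8.78 and 9.13 in Sham. All 6 hearts of IR virus and IR lay above all IR edit and all Sham hearts. It fell in IR edit to 0.535 times the level in IR virus, a log2 fold change of -0.90 ± 0.12 (SE, adjusted p = 0.00124 from edgeR, lower in 4 of 4 hearts). Against IR the log2 fold change was -0.88 ± 0.12 (adjusted p = 0.00174). Both calls were kept whichever library of the groups compared was left out, with largest adjusted p of 0.0119 and 0.0105, and without IR edit replicates 2 and 4 together (-0.87, adjusted p = 0.0158, and -0.85, adjusted p = 0.0198). Against Sham, IR edit had a log2 fold change of -0.25 ± 0.12 (adjusted p = 0.249), while IR and IR virus together had 0.65 ± 0.11 and just missed the threshold (adjusted p = 0.0504 from edgeR). That comparison passed without Sham replicate 1, the highest Sham heart, at 0.83 (adjusted p = 0.00712), and without IR replicate 3 at 0.60 (adjusted p = 0.046). Those were 2 of 9 fits with a library left out, where the largest adjusted p was 0.21 from edgeR. The comparison also passed in a fit of the 9 libraries outside IR edit (adjusted p = 0.0117 from edgeR).

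The remaining PFKFB genes did not pass. Pfkfb2, the heart form, had 64.0, 60.3, 62.8 and 50.4 CPM in IR edit, 49.1, 48.5 and 52.7 in IR virus, 51.0, 52.7 and 65.3 in IR, and 62.3, 49.6 and 56.0 in Sham. Pfkfb4, first described in testis, had 2.74 to 3.27 CPM in IR edit, 2.90 to 3.46 in IR virus, 2.77 to 2.90 in IR and 2.70 to 2.76 in Sham. Per exon length, Pfkfb2 made up 70.4% of the family in IR edit, 52.6% in IR virus, 55.6% in IR and 49.6% in Sham. Pfkfb1 made up 14.4% in IR edit, 26.3% in IR virus, 25.1% in IR and 38.1% in Sham, and Pfkfb3 made up 9.94%, 16.3%, 15.1% and 8.64% in the same groups. These shares are descriptions without a test, and 25.0% of the 50-base stretches in protein-coding Pfkfb2 transcripts also occur in transcripts of other genes.

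**Figure D3:**
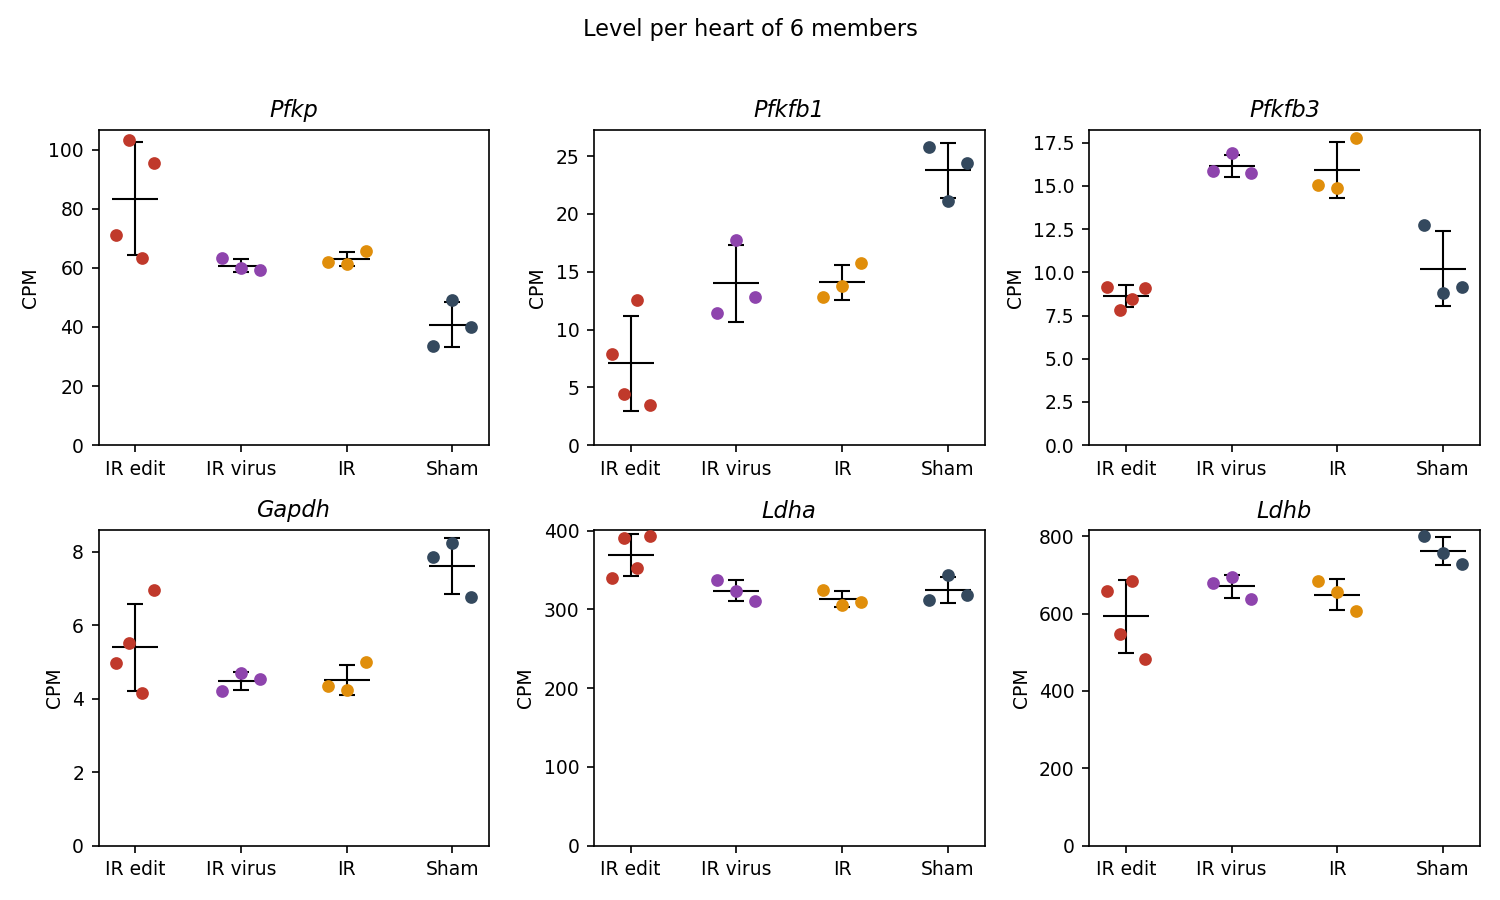
CPM per heart of Pfkp, Pfkfb1, Pfkfb3, Gapdh, Ldha and Ldhb in IR edit (n = 4), IR virus, IR and Sham (n = 3 each), with the mean and SD in black. Pfkfb3 is high in all 6 IR virus and IR hearts and low in all 4 IR edit hearts. The mean of Pfkfb1 is lowest in IR edit, whose hearts overlap those of IR virus, and highest in Sham.

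Several sets of other genes moved in the same comparisons as these members. Of 8 immediate early genes, 1 of them not tested, 6 rose in IR edit against Sham, while 2 of 12 clock genes rose and 6 fell, and 4 of 7 fibroblast markers rose. Fibroblast markers summed to 1074 to 2023 CPM in IR edit, 1279 to 1798 in IR virus, 1183 to 1729 in IR and 968 to 1009 in Sham. Within IR edit, replicates 2 and 4 had fibroblast sums of 1648 and 2023, and replicates 1 and 3 of 1275 and 1074. Against IR virus 3 of 8 immediate early genes rose, 2 of 12 clock genes rose and 6 fell, and no fibroblast marker passed edgeR's test. Against IR 4 of 8 immediate early genes rose, 2 of 12 clock genes rose and 5 fell, and 1 of 5 endothelial markers fell. Adipocyte markers, 5 in number with 2 not tested, summed to 331 to 402 CPM in IR edit, 390 to 456 in IR virus, 450 to 493 in IR and 430 to 509 in Sham, and 1 fell in IR edit against Sham. The 5 smooth muscle and pericyte markers summed to 832 to 951 CPM in IR edit, 956 to 1041 in IR virus, 1027 to 1145 in IR and 910 to 1098 in Sham. Dbp, a transcription factor of clock output, averaged 5.94 CPM in IR edit, 41.8 in IR virus, 34.6 in IR and 29.7 in Sham. The part of harvest time, handling or cell makeup in the changes of Pfkp, Pfkfb1 and Pfkfb3 was not tested. Of 10 skeletal muscle markers none of those tested passed, and 6 of the 10 were too low to test. At 0 in every heart of the group were 1 of the 10 in IR virus (Myod1), 2 in IR (Myh2 and Myod1) and 0 in IR edit and in Sham. Their sum was 492 to 602 CPM in IR edit, 536 to 654 in IR virus, 555 to 579 in IR and 555 to 673 in Sham. Of 4 neutrophil markers only Ly6g was at 0 in every heart. The sum of the 4 was 0.762 to 1.63 CPM in IR edit, 0.547 to 0.796 in IR virus, 0.426 to 1.52 in IR and 0.388 to 3.25 in Sham.

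From aldolase to pyruvate kinase 0 of 9 tested members passed edgeR's test in any of the 7 comparisons. Gapdh, the glyceraldehyde 3-phosphate dehydrogenase that is often used as a reference gene, had 4.97, 5.51, 4.14 and 6.96 CPM in IR edit, 4.22, 4.70 and 4.55 in IR virus, 4.33, 4.22 and 4.98 in IR, and 7.85, 8.22 and 6.76 in Sham. All IR virus and IR hearts lay below all Sham hearts, and IR edit replicate 4 reached into the Sham range. IR and IR virus together had a log2 fold change of -0.76 ± 0.14 (SE, adjusted p = 0.0504 from edgeR) and IR edit one of -0.49 ± 0.15 (adjusted p = 0.054) against Sham. The IR edit comparison passed without IR edit replicate 4 (adjusted p = 0.0195), without replicates 2 and 4 (-0.73, adjusted p = 0.0309) and with DESeq2 (adjusted p = 0.0323). It passed in 1 of 7 fits with a library left out (largest adjusted p 0.155 from edgeR). IR and IR virus together passed in 1 of 9 such fits (largest adjusted p 0.15 from edgeR). They also passed with DESeq2 (adjusted p = 0.000478) and in a fit of the 9 libraries outside IR edit (adjusted p = 0.003 from edgeR). These values rest on only 80 to 208 reads per heart. Of the 50-base stretches in its protein-coding transcripts, 58.4% also occur in transcripts of other genes, and how such reads were counted is not given in the sources used here.

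The same limit touches other genes of lower glycolysis. Shared stretches made up 68.0% for Pgk1, 49.5% for Eno1, 41.5% for Pgam1, 23.7% for Pkm and 0% for Eno3 and Pgam2, so counts of Pgk1, Eno1, Pgam1 and Pkm are uncertain. The same holds for Gpi1 (24.5%) and, among the called members, for Ldhb (21%) and Pfkp (15.4%), against 0.137% for Pfkfb1 and 0.53% for Pfkfb3. Pgk1 averaged 115 ± 6.54 CPM in IR edit, 116 ± 6.98 in IR virus, 120 ± 4.72 in IR and 115 ± 0.604 in Sham. Tpi1 averaged 303 ± 9.12 CPM in IR edit, 305 ± 22.7 in IR virus, 299 ± 10.9 in IR and 292 ± 13.9 in Sham, with overlap between all groups. Aldoa averaged 911 ± 78.0 CPM in IR edit, 996 ± 114 in IR virus, 871 ± 40.2 in IR and 875 ± 103 in Sham. Of the mutases, Pgam2 averaged 216 ± 9.74 CPM in IR edit and 192 ± 21.4 in Sham, and the widely used form Pgam1 4.07 ± 1.23 in IR edit and 3.53 ± 0.388 in Sham. Eno3 averaged 742 ± 49.1 CPM in IR edit, 770 ± 66.7 in IR virus, 692 ± 15.6 in IR and 784 ± 51.2 in Sham, and the widely used enolase Eno1 37.5 ± 5.37, 39.7 ± 3.81, 38.2 ± 1.10 and 34.1 ± 3.75 in the same groups. Pkm averaged 485 ± 18.3 CPM in IR edit, 456 ± 32.9 in IR virus, 431 ± 13.7 in IR and 455 ± 40.8 in Sham. For Pkm every IR edit heart lay above every IR heart, at an unadjusted p of 0.0414 and an adjusted p of 0.323 from edgeR.

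Lactate dehydrogenase is a tetramer of heart (Ldhb) and muscle (Ldha) subunits, and Ldhb fell in IR edit against Sham. Ldhb had 659, 547, 684 and 483 CPM in IR edit, 680, 694 and 637 in IR virus, 685, 655 and 607 in IR, and 800, 757 and 727 in Sham. All hearts with IR lay below all Sham hearts, and IR edit replicates 4 and 2 were the lowest of the 13. The level in IR edit was 0.779 times that in Sham, a log2 fold change of -0.36 ± 0.10 (SE, adjusted p = 0.0456 from edgeR). This call was lost without IR edit replicate 2 or 4 or any Sham heart (largest adjusted p 0.136), and without IR edit replicates 2 and 4 together the log2 fold change was -0.18 (adjusted p = 0.433). Ldha had 340, 391, 352 and 393 CPM in IR edit, 337, 324 and 310 in IR virus, 324, 305 and 309 in IR, and 312, 343 and 319 in Sham. IR edit hearts lay above all IR virus and IR hearts and overlapped Sham, with log2 fold changes of 0.19 ± 0.07 against IR virus (adjusted p = 0.221), 0.24 ± 0.07 against IR (adjusted p = 0.128) and 0.18 ± 0.07 against Sham (adjusted p = 0.13 from edgeR).

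Per exon length Ldha made up 23.1 ± 4.14% of both subunits in IR edit (SD, n = 4), 18.6 ± 0.472% in IR virus, 18.6 ± 0.735% in IR and 16.8 ± 1.09% in Sham (n = 3 each). IR edit replicates 4 and 2 had the highest log2 ratios of Ldha to Ldhb, while replicates 1 and 3 lay near the IR and IR virus hearts. The monocarboxylate carriers, which move lactate across the membrane, did not pass. Slc16a1 averaged 355 ± 4.71 CPM in IR edit, 328 ± 14.5 in IR virus, 335 ± 18.2 in IR and 374 ± 20.9 in Sham. Slc16a3, the carrier of lactate-exporting cells, averaged 1.55 ± 0.366, 1.54 ± 0.120, 1.35 ± 0.153 and 1.10 ± 0.260 CPM in IR edit, IR virus, IR and Sham, from 19 to 49 reads per heart.

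**Figure D4:**
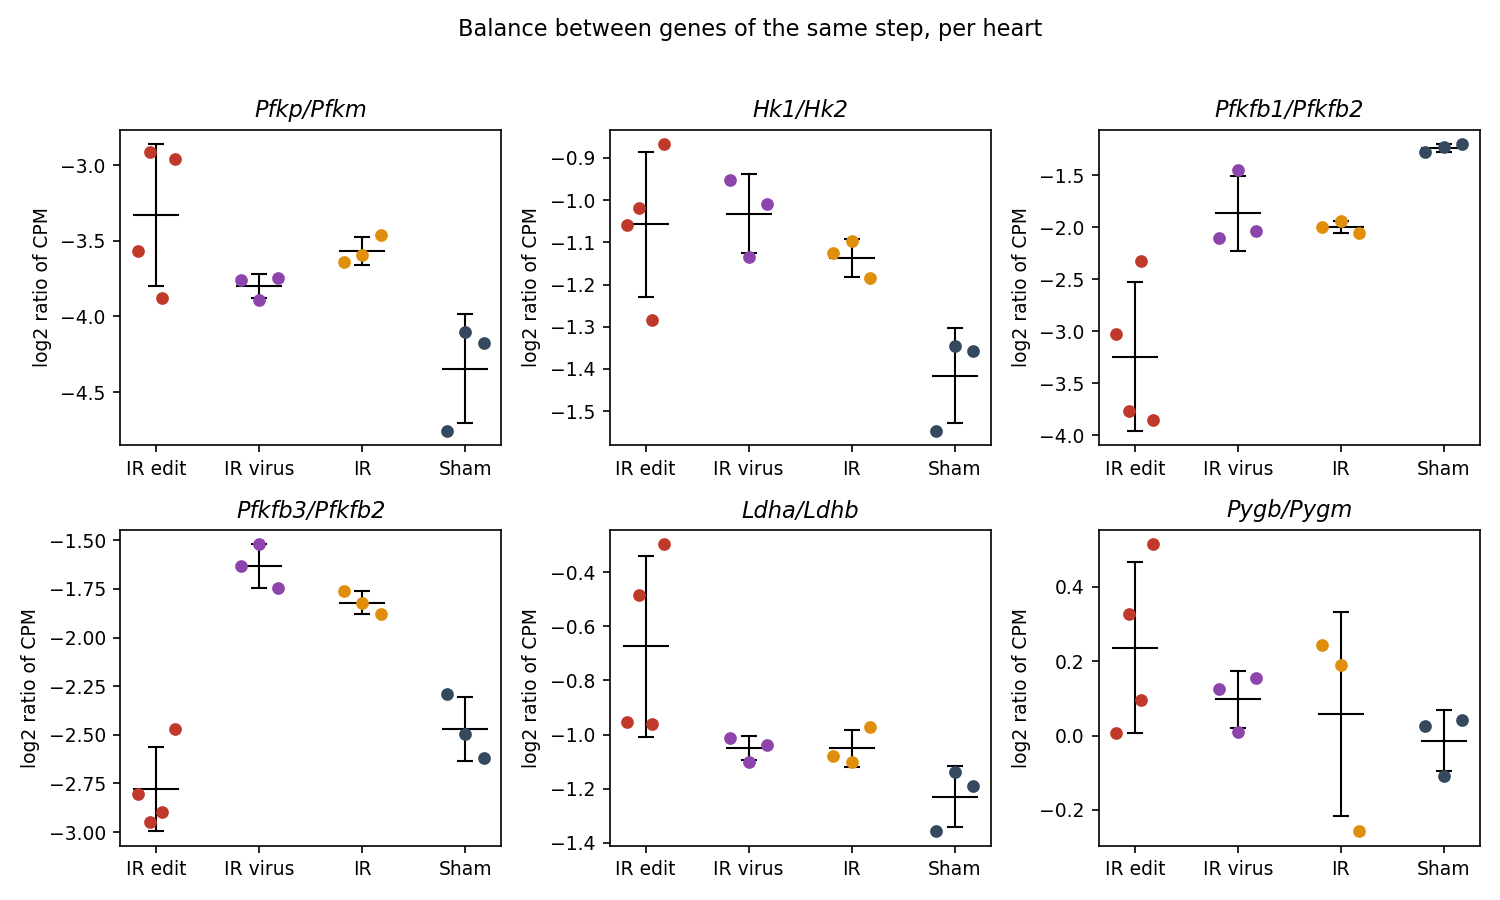
Log2 ratio of CPM between genes of the same step in each heart, for Pfkp to Pfkm, Hk1 to Hk2, Pfkfb1 to Pfkfb2, Pfkfb3 to Pfkfb2, Ldha to Ldhb and Pygb to Pygm, with group mean and SD in black. Ratios are not corrected for gene length. Pfkfb3 to Pfkfb2 averages -2.78 in IR edit, -1.63 in IR virus, -1.82 in IR and -2.47 in Sham, and Ldha to Ldhb spreads more within IR edit than in the other groups.

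The 5 glycogen members did not pass in any comparison by edgeR. Gys1, the muscle glycogen synthase, averaged 95.7 ± 2.04 CPM in IR edit, 95.01 ± 6.90 in IR virus, 82.6 ± 13.5 in IR and 84.8 ± 13.6 in Sham. Gbe1 averaged 69.2 ± 2.57 CPM in IR edit, 66.5 ± 3.44 in IR virus, 71.0 ± 7.01 in IR and 71.0 ± 6.58 in Sham. The phosphorylases, which release glucose units from glycogen, include Pygm, the muscle form, with 762 ± 61.4 CPM in IR edit, 819 ± 67.2 in IR virus, 716 ± 20.3 in IR and 761 ± 85.6 in Sham. Pygb averaged 898 ± 84.0 CPM in IR edit, 875 ± 52.8 in IR virus, 752 ± 116 in IR and 753 ± 74.8 in Sham. Its log2 fold change in IR edit against Sham was 0.25 ± 0.11 (adjusted p = 0.166 from edgeR). Pygl, the liver form, averaged 5.63 ± 0.212, 6.10 ± 0.479, 6.41 ± 0.638 and 5.15 ± 1.03 CPM in IR edit, IR virus, IR and Sham.

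Outside the 31 members, calls in the glycogen pathway fell on regulators. Of 22 other glycogen genes tested 1 rose and 2 fell in IR edit against Sham, where 4.61% of all genes rose and 3.4% fell, and their median log2 fold change was -0.07. Ppp1r3c, which targets protein phosphatase 1 to glycogen and promotes its storage, had 181, 243, 190 and 287 CPM in IR edit, 129, 123 and 140 in IR virus, 131, 139 and 145 in IR, and 129, 146 and 121 in Sham. Every IR edit heart lay above the other 9 hearts. The log2 fold change was 0.77 ± 0.13 against Sham (adjusted p = 0.00455 from edgeR), 0.78 ± 0.13 against IR virus (adjusted p = 0.00766) and 0.70 ± 0.13 against IR (adjusted p = 0.014). The first 2 calls were kept whichever library of the groups compared was left out and without IR edit replicates 2 and 4 (0.49, adjusted p = 0.0197, and 0.50, adjusted p = 0.0255), whereas that against IR then had an adjusted p of 0.0727, and was also lost without IR replicate 1 or 2 (largest adjusted p 0.1).

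The other called glycogen genes fell in IR edit against Sham. Phkg1, the catalytic subunit of muscle phosphorylase kinase, had 19.7, 12.7, 22.6 and 11.2 CPM in IR edit, 21.9, 24.9 and 21.8 in IR virus, 22.8, 20.8 and 17.6 in IR, and 37.6, 27.3 and 28.1 in Sham. Sham hearts lay above all others, and the log2 fold change of IR edit was -0.91 ± 0.20 (adjusted p = 0.0131 from edgeR). It was lost without Sham replicate 1 (adjusted p = 0.0594) and without IR edit replicates 2 and 4 (-0.56, adjusted p = 0.107). Ppp1r3a, the glycogen-targeting subunit of striated muscle, averaged 218 CPM in IR edit and 326 in Sham, a log2 fold change of -0.58 ± 0.16 (adjusted p = 0.0383). Its level was 209 CPM in IR virus and 223 in IR, and the call was lost without IR edit replicate 1, 2 or 4 or Sham replicate 1 or 3 (largest adjusted p 0.174).

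Among other glycolysis and transport genes, Slc16a7 and Fbp2 fell in IR edit against Sham by edgeR. Slc16a7, the carrier MCT2, had 8.09, 5.69, 6.68 and 4.98 CPM in IR edit, 9.39, 7.85 and 8.71 in IR virus, 8.70, 8.95 and 10.8 in IR, and 11.4, 10.1 and 18.8 in Sham. Its log2 fold change in IR edit against Sham was -1.07 ± 0.20 (adjusted p = 0.00583), and -0.85 (adjusted p = 0.0997) without IR edit replicates 2 and 4. Fbp2, the muscle fructose bisphosphatase that opposes phosphofructokinase, averaged 12.6 CPM in IR edit and 19.9 in Sham (log2 fold change -0.67 ± 0.19, adjusted p = 0.0402). The Fbp2 call was lost without IR edit replicate 1, 2 or 4 or any Sham heart (largest adjusted p 0.12).

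Of 11 genes of pyruvate entry into mitochondria 3 fell and 0 rose in IR edit against Sham by edgeR, where 3.4% of all genes fell and 4.61% rose. Pdp2, a phosphatase that activates pyruvate dehydrogenase, had 36.1, 23.2, 37.5 and 20.6 CPM in IR edit, 41.9, 53.7 and 42.0 in IR virus, 43.9, 43.2 and 55.5 in IR, and 51.7, 48.4 and 52.3 in Sham. All IR edit hearts lay below the other 9, with a log2 fold change against Sham of -0.79 ± 0.18 (adjusted p = 0.0154), and of -0.47 (adjusted p = 0.124) without IR edit replicates 2 and 4. Pdhb, a subunit of pyruvate dehydrogenase, averaged 382 CPM in IR edit and 474 in Sham (-0.31 ± 0.08, adjusted p = 0.0241), and Mpc2, a subunit of the mitochondrial pyruvate carrier, 157 and 192 CPM in the same groups (-0.29 ± 0.08, adjusted p = 0.0382). Pdp2 was lost without IR edit replicate 2 (adjusted p = 0.0547 from edgeR), and Pdhb without IR edit replicate 2 or 4 or Sham replicate 2 or 3 (largest adjusted p 0.0842). Mpc2 was lost without IR edit replicate 1, 2 or 4 or any Sham heart (largest adjusted p 0.124). Genes that the hypoxia factor HIF-1 is known to induce outside glycolysis, 13 in number, held 0 calls in IR edit against Sham by edgeR. P4ha1, a prolyl hydroxylase of collagen, came closest, with 87.5 CPM in IR edit and 51.3 in Sham (adjusted p = 0.0505). Against IR virus the growth factor Vegfa rose in IR edit, with 283 CPM in IR edit and 225 in IR virus (log2 fold change 0.33 ± 0.07, adjusted p = 0.0307). That call was lost without IR edit replicate 2 or 4 or any IR virus heart (largest adjusted p 0.158). Vegfa averaged 252 CPM in IR and 258 in Sham, and IR edit passed against neither. The lowest IR edit heart (274) lay below the highest IR (275) and Sham (277) hearts, so IR virus was the low group. Near copies of members, of which Gapdhs and Aldoart1 were tested, held no call.

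**Figure D5:**
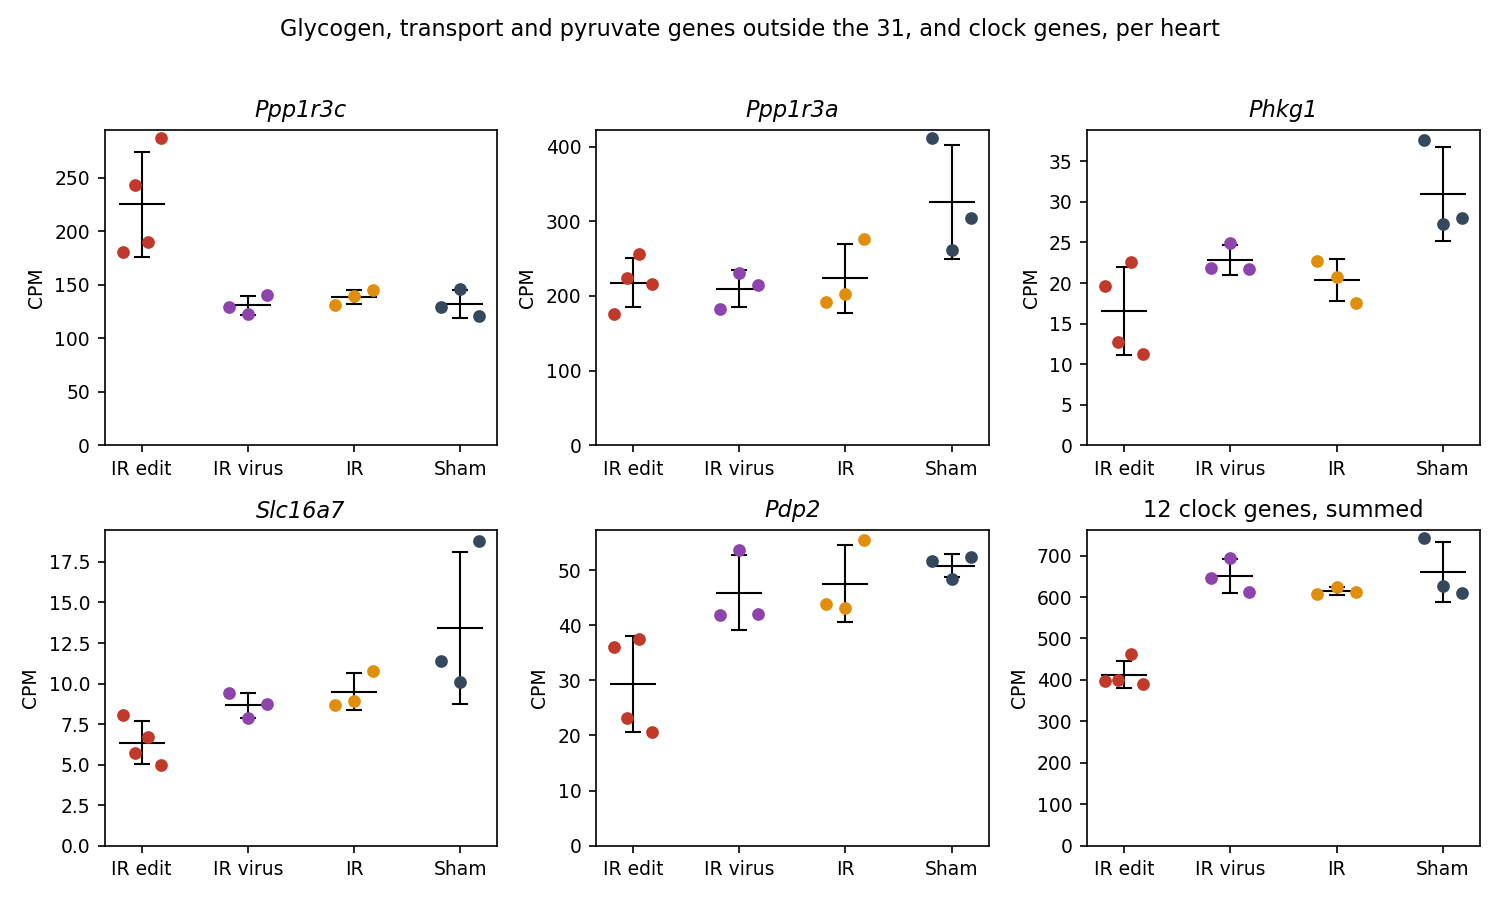
CPM per heart of Ppp1r3c, Ppp1r3a, Phkg1, Slc16a7 and Pdp2, and the summed CPM of 12 clock genes, in IR edit (n = 4), IR virus, IR and Sham (n = 3 each), with mean and SD in black. Ppp1r3c is higher and Pdp2 and the clock sum are lower in all 4 IR edit hearts than in the other 9.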

How the data were processed

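RNA from 13 whole hearts was sequenced, 1 library per heart, with groups taken from the sample titles. The deposited files hold raw counts of reads per gene symbol. Per the submitters' processing notes, the authors used featureCounts 1.6.2, HISAT2 2.1.0, FastQC 0.11.8 and Trimmomatic 0.39, with build mm10. The annotation, the strandedness of counting and the handling of reads that fit several genes are not stated there. Counts were analysed in R 4.3.3 with edgeR 4.0.16: TMM scaling, filterByExpr by group, 1 mean per group over all 13 libraries, the quasi-likelihood test and Benjamini-Hochberg adjustment over 15690 genes, with an adjusted p of 0.05 as threshold. Standard errors were derived from each log2 fold change and its F statistic (the absolute change over the root of F). CPM values are TMM-scaled, and exon lengths came from GENCODE M21 (GRCm38). Shared 50-base stretches were counted in its transcripts, and promoters came from RefSeq. The scripts were tested on simulated data. Alternatives included DESeq2 1.42.0, other scalings and filters, and left-out libraries. The labels do not say whether replicate numbers pair hearts, and the main fit did not pair them. Of 18 same-numbered pairs of hearts 4 correlated above 0.1. Same-numbered pairs ranged from -0.13 to 0.221 and the 45 other pairs between groups from -0.194 to 0.211. These ranges overlap, so the check cannot settle whether hearts were paired. All members were named, per-heart values went to called members, genes of the same step and Gapdh, and other pathway genes were named if they passed in IR edit against Sham or IR virus, or by smallest p. The members, lists and alternatives were chosen with earlier results of these data known. Leaving out IR edit replicates 2 and 4 together, and fitting the 9 libraries outside IR edit, were chosen after seeing the data. A result among the other pathway genes is not reported here.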

Additional observations from a re-analysis of the deposited data

Results flagged for a closer look

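Pgam1, the widely used phosphoglycerate mutase, had 4.60, 4.75, 2.23 and 4.69 CPM in IR edit hearts 1 to 4. Replicate 3 stood apart from the other 3 hearts: its gap to the nearest made up 0.941 of the group's range, which is past Dixon's critical value for 4 samples. The rule was applied to the IR edit hearts of each of the 31 members, and only Pgam1 was past it. Chance places about 1 in 20 groups past it, so a hit among 31 is not unusual. The lowest count of this gene over all hearts was 43 reads. The cause was not tested.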

How the results depend on the processing

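Members called in IR edit against Sham numbered 3, and 5 without a filter, where Gapdh and Slc2a4 were added. They numbered 4 with DESeq2's Wald test and with a filter of 1 CPM in 3 libraries, where Gapdh was added (adjusted p = 0.0323 and 0.0495); with a library of the groups compared left out they numbered 2 to 4. In IR virus against Sham, where 0 were called, there were 4 without a filter, 3 with DESeq2's Wald test, 2 in a fit of only the groups compared, 4 in a fit of the 9 libraries outside IR edit and 0 to 1 with a library left out. In IR against Sham the counts were 4 without a filter, 2 with DESeq2, 3 with only the groups compared, 4 with the 9 libraries and 0 to 1 with a library left out. For IR and IR virus together against Sham they were 2 with DESeq2's size factors and 4 without a filter. They were 2 with a robust dispersion, 3 with DESeq2 and 4 with only the groups compared, which here are the 9 libraries. With a library left out they were 0 to 2. Pfkfb3, Gapdh, Pfkp and Pfkfb1 made up these calls. Calls among all genes moved too, given here in the same order of settings without the left-out libraries. In IR virus against Sham they numbered 863, 202, 203 and 313, with 2 in the main fit. In IR against Sham they numbered 598, 57, 115 and 156, with 2 in the main fit. For both together they were 26, 940, 13, 241 and 394, with 3 in the main fit. In IR edit against IR virus and against IR there were 3 members without a filter and 1 to 3 with a library left out. With DESeq2 there were 2 against IR, where Ldha was added. All genes called without a filter numbered 1018 and 1021, with 317 and 223 in the main fit, and DESeq2 called 443 against IR. IR virus against IR kept 0 member calls by edgeR and DESeq2.

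The replicate number pairs nothing in the labels, and same-numbered hearts correlated between -0.13 and 0.221. With the number as a replicate block, 3 members passed in IR edit against Sham (Gapdh, Pfkfb1 and Pfkp, with Ldhb at an adjusted p of 0.105 from edgeR; it was also lost with total counts, 0.0939, and with only the groups compared, 0.138), 2 in IR virus against Sham, 0 in IR against Sham and 3 in both together against Sham. All genes called in IR edit against Sham numbered 1257, with 590 under the block and 2205 without a filter. They numbered 246 in a fit of only the groups compared and 158 without IR edit replicates 2 and 4. With DESeq2's Wald test they numbered 1633, and with a filter of 1 CPM in 3 libraries 1263. Under the block all genes called numbered 174 in IR virus against Sham, 5 in IR against Sham and 181 in both together.

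Signs changed for 4 values near 0. Pfkm in IR edit against Sham was -0.0056 without a filter, -0.000303 with a filter of 1 CPM and -0.0019 with only the groups compared, and -0.085 to 0.073 with a library left out. Pfkl ran from -0.15 to 0.11 in the same comparison. Pfkfb4 in IR edit against IR virus ran from -0.12 to 0.025, and Gapdh in IR virus against IR from -0.054 to 0.070 and was 0.014 with total counts. The log2 ratio of Slc16a3 to Slc16a1 in IR virus was -7.66 with a prior count of 2 and -7.74 without. Depth limits Gapdh, Pgam1, Slc16a3 and Aldoc, the last with 0 to 5 reads.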
